A study of Homo sapiens with 6 samples.

Results

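The genes of RNA decay are described here in HuH7, an established human hepatoma cell line, after a gapmer lowered the long noncoding RNA EGOT. Gapmers are antisense oligonucleotides with a DNA centre that lead RNase H to a target RNA. They were taken from the array's gene annotation by symbol: those that begin with EXOSC, CNOT, DCP, XRN, DIS3, EDC, UPF, SMG and a digit, RNASEH, or PAN and a digit, together with PARN, MTREX, ZC3H12A, the ZFP36 genes, DICER1, DROSHA and AGO1 to AGO4. This gave 33 of 14812 named genes, read by 34 probe sets, of which 30 were protein-coding and 3 were noncoding transcripts. A list of these protein-coding genes by role holds 60, so the other 30, among them all AGO genes, DICER1, DROSHA, the ZFP36 genes and most CCR4-NOT and SMG genes, were not analysed here. The rule itself reads only gene symbols.

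The study had 3 arrays of cells given a gapmer against EGOT and 3 arrays of cells given a control gapmer. Every sample was also transfected with a plasmid expressing PKR (0.3 µg among the plasmid DNA), a kinase that senses double-stranded RNA, and with poly I:C, its synthetic mimic. Each well received 50 pmol of gapmer, and total RNA was taken 36 hours after transfection. The comparison sets EGOT depletion against a control oligonucleotide, with 1 gapmer per arm, in 1 cell line and with no samples free of PKR and poly I:C. The labels do not say whether replicates were separate cultures, and the p-values therefore cover only the spread between these arrays, which may be technical. Values are log2 expression after RMA, so a difference of 1 is a doubling, and every difference is EGOT gapmer minus control gapmer.

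Messenger RNA decay usually starts with removal of the poly(A) tail by deadenylases, the PAN2-PAN3 complex, the CCR4-NOT complex and PARN. The body is then degraded from its 3′ end by the exosome, a ring of subunits topped by a cap of RNA-binding subunits, or the 5′ cap is removed by the DCP1-DCP2 enzyme and XRN1 degrades the RNA from that end. Nonsense-mediated decay, led by the UPF proteins, removes transcripts with early stop codons. In innate immunity, RNases such as the product of ZC3H12A shorten the life of cytokine transcripts. RNase H cleaves RNA paired with DNA and is the activity that gapmers recruit.

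The oligonucleotide sequences are given as the labels print them, since RNASEH1, the gene of the enzyme that acts with gapmers, is among the genes measured.
Gapmer against EGOT: agagacacttagaaga
Control gapmer: aacacgtctatacgc

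Promoter sequences from RefSeq (GRCh38.p14) were matched for 31 of the 33 genes, each 250 bases before and 50 after the annotated start. Those of EXOSC5, EXOSC2, UPF2, ZC3H12A and RNASEH1-DT are shown because these genes passed the test described below, EXOSC5 and EXOSC2 as subunits of the same particle and RNASEH1-DT because its window also holds the start of RNASEH1. Capitals mark matches, on either strand, to any of 7 motifs: the GC box (GGGCGG), the ETS core (CCGGAAG), the E-box (CACGTG), the TATA box (TATAAA), and the published consensus motifs of NRF1, of NF-kB and of the interferon-stimulated response element.
EXOSC5 promoter, chr19:41397310-41397609, minus strand: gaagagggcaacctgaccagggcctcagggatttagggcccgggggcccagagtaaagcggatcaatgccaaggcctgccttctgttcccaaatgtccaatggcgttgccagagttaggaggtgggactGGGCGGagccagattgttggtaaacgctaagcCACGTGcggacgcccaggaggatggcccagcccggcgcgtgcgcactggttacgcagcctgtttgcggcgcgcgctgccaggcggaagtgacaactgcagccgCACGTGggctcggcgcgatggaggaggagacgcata
EXOSC2 promoter, chr9:130693510-130693809, plus strand: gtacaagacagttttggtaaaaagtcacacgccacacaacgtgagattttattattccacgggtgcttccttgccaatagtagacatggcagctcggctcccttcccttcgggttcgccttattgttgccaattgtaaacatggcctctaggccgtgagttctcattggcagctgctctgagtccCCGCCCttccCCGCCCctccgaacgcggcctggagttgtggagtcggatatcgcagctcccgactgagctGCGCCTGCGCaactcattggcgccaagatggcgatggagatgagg
UPF2 promoter, chr10:12043121-12043420, minus strand: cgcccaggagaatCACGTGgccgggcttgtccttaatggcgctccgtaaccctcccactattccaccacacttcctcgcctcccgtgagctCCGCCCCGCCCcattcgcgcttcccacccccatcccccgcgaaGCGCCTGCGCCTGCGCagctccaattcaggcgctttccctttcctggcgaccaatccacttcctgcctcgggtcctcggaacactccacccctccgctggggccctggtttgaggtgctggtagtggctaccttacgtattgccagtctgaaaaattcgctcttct
ZC3H12A promoter, chr1:37474330-37474629, plus strand: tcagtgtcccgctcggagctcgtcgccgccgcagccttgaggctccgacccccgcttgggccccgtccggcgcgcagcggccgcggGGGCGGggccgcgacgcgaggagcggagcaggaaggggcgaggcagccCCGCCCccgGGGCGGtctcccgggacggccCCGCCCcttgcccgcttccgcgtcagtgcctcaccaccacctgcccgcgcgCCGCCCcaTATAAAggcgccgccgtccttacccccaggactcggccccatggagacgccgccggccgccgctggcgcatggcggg
RNASEH1-DT promoter, chr2:3558136-3558435, plus strand: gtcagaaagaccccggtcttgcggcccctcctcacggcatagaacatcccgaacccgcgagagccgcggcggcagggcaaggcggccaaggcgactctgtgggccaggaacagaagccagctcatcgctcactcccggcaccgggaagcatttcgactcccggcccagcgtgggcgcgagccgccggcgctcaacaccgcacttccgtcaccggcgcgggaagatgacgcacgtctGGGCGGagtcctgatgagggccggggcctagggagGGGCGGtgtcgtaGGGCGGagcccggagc

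The GC box was present in 26 of the 31 promoters, and in 45% of all 35116 promoters of that length. The NRF1 motif was found in 4 of the 31 (4.04% of all promoters), EXOSC2, EXOSC8, PARN and UPF2. In UPF2 its 2 matches overlap each other, as do the 2 GC boxes. The E-box was found in 3, EXOSC5 (2 matches), UPF2 and XRN2 (7.26% of all promoters), and the ETS core in 7 (10.3%), among them CNOT9, PARN and DIS3L2. The TATA box was matched in ZC3H12A, EXOSC8 and RNASEH2B-AS1 (11.5%) and the NF-kB motif in EDC4 (11.3%). The interferon-stimulated response element was matched in 0 of the 31 and in 0.231% of all promoters. The median GC content was 64% over the members' promoters and 58.7% over all promoters. These matches describe the letters of the windows and were not tested as sites.

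EGOT itself had log2 levels of 4.91, 4.90 and 4.69 with its gapmer, against 6.29, 6.79 and 6.71 with the control gapmer. It fell with its gapmer (log2 difference -1.76, SE 0.142, limma adjusted p = 0.0076). The EGOT gapmer values lay below the median of every array and no detection calls were used, so no remaining share is given. Correlations between arrays over all probe sets were 0.987 to 0.989 within the EGOT gapmer group, 0.991 to 0.992 within the control gapmer group and 0.985 to 0.988 between groups. EGOT gapmer replicate 2 had the highest array median, 5.23, where the other 5 arrays lay between 5.08 and 5.15, and it was the highest of its group in 22 of the 33 RNA decay genes. The share of all genes in which it was the highest was not counted. Over all genes its mean log2 deviation from the control gapmer mean was 0.094, against 0.008 and 0.009 in EGOT gapmer replicates 1 and 3. Of 9 hepatoma markers such as ALB and AFP 7 were measured, at 11.4 to 13.7 in every array, and their summed log2 level was 88.6 in the EGOT gapmer arrays, against 88.8 to 88.9 in the control gapmer arrays. The fibroblast and stellate cell markers measured (DCN and LUM) and the endothelial markers measured (KDR and VWF) read 2.28 to 4.69, and CD14, the 1 leukocyte marker measured, 5.46 to 5.75. None of these markers passed the test. In bulk samples such as these, fewer cells expressing a gene and less RNA per cell cannot be told apart.

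Over all 33 genes, 5 rose and 2 fell with the EGOT gapmer (limma, Benjamini-Hochberg adjusted p below 0.05 over all named genes), and 26 did not pass. Those that rose were 3 core exosome genes, EXOSC5, EXOSC1 and EXOSC2, with ZC3H12A and the noncoding RNASEH1-DT. Those that fell were UPF2, a scaffold of nonsense-mediated decay, and PAN3, the partner of the PAN2 deadenylase. The share called was 15.2% higher and 6.06% lower, where over all 14812 genes 5.2% were called higher and 3.21% lower. Those 14812 include dim genes, whereas 31 of the 33 members had a mean above the median of gene means. In a fit of the 7406 genes above that median, 22.8% were called higher and 11.6% lower. Of the 31 members in that fit, 9 were called higher and 5 lower. The groups did not overlap in 10 genes that were higher (30.3%, against 20.2% of all genes) and 6 that were lower (18.2%, against 11.5%), so that 31.7% of all genes had groups apart in either direction. The median log2 difference was 0.07, and 0.04 over all genes. With 3 arrays against 3, an exact permutation test of a single gene cannot go below p = 0.1, so the calls rest on the variance that limma shares across genes.

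**Figure D1:**
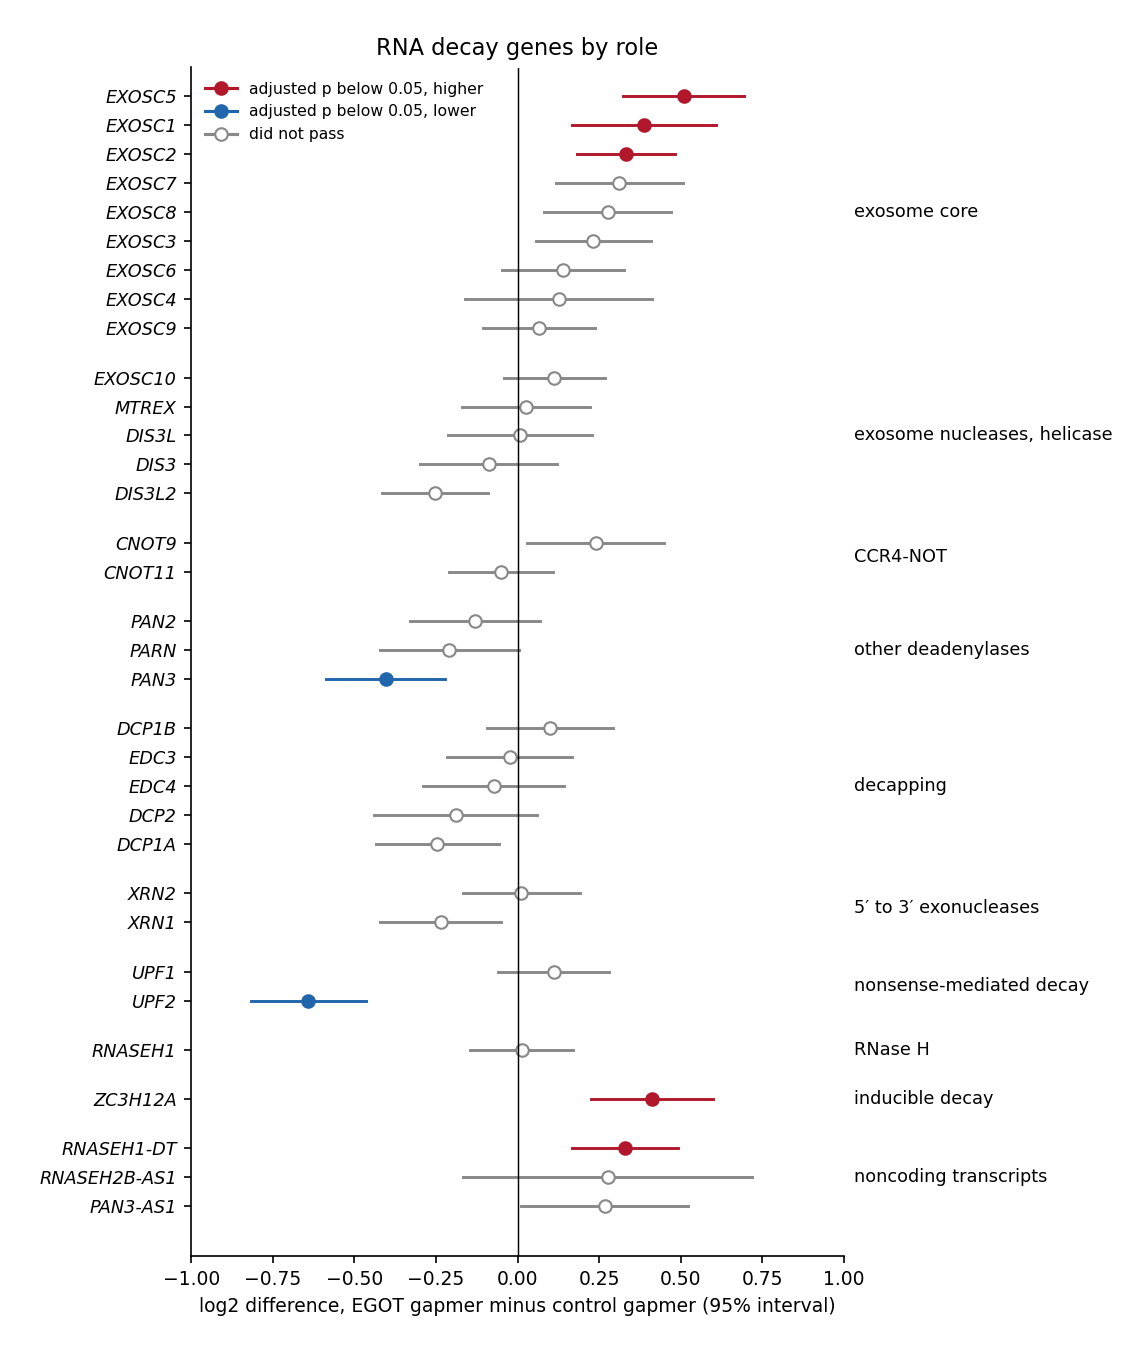
Log2 difference (EGOT gapmer minus control gapmer, x axis) with its 95% interval for each of the 33 RNA decay genes (y axis), grouped by role. Filled red points are the 5 genes that rose, filled blue points the 2 that fell, and open points the 26 that did not pass; all 9 core exosome genes lie right of 0.

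The core exosome was the role group with the most calls and also with the most genes measured. It holds a ring of 6 subunits, EXOSC4 to EXOSC9, and a cap of 3, EXOSC1 to EXOSC3, and all 9 genes were measured. All 9 had a log2 difference above 0, from 0.07 to 0.51, with a median of 0.28, and 3 of the 9 rose while 0 fell. The mean log2 level over the 9 was 8.38, 8.47 and 8.41 in the EGOT gapmer arrays, against 8.15, 8.19 and 8.12 in the control gapmer arrays. In 6 of the 9 the groups did not overlap. Of all genes, 57.8% had a difference above 0, 5.2% were called higher and 20.2% were higher with groups that did not overlap. Among the 5352 protein-coding genes in the same range of genomic spans these shares were 67.4%, 8.5% and 30.1%. Both backgrounds include dim genes. In the fit of the 7406 genes above the median of gene means, 6 of the 9 core genes were called higher, against 22.8% of all genes there.

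EXOSC5, a ring subunit, had log2 levels of 9.17, 9.14 and 9.27 with the EGOT gapmer, against 8.59, 8.76 and 8.70 with the control gapmer. The lowest EGOT gapmer array was thus above the highest control gapmer array by more than the range within either group. It rose 1.42-fold (log2 difference 0.51, SE 0.0785, limma adjusted p = 0.0173). EXOSC2, a cap subunit, had the smallest standard error of the 33 genes, with 9.09, 9.11 and 9.11 in EGOT gapmer arrays, against 8.74, 8.79 and 8.78 in control gapmer arrays. It rose 1.26-fold (log2 difference 0.33, SE 0.0636, limma adjusted p = 0.0285).

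EXOSC1, another cap subunit, read 8.37, 8.65 and 8.41 with the EGOT gapmer, against 8.14, 8.11 and 8.02 with the control gapmer. EGOT gapmer replicate 2 stood above the other arrays of its group. The 1.31-fold rise lay at the threshold (log2 difference 0.39, SE 0.0937, limma adjusted p = 0.0498), and taking the mean of probe sets for all genes moved it across (limma adjusted p = 0.0502). Without EGOT gapmer replicate 2 its log2 difference was 0.30 (limma adjusted p = 0.08).

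The other core genes had smaller or more variable differences. EXOSC7, a ring subunit, read 8.20, 8.40 and 8.20 in EGOT gapmer arrays, against 7.90 to 8.0 in the 3 control gapmer arrays (log2 difference 0.31, limma adjusted p = 0.063). EXOSC8, the ring partner of EXOSC5, read 8.63, 8.87 and 8.77 with the EGOT gapmer, against 8.45, 8.53 and 8.46 with the control gapmer (log2 difference 0.28, limma adjusted p = 0.0871). EXOSC3, the third cap subunit, was 0.23 higher on the log2 scale (limma adjusted p = 0.108). In these 3 genes the groups did not overlap, though none passed. They overlapped in EXOSC6, EXOSC4 and EXOSC9, with log2 differences of 0.14, 0.13 and 0.07 (limma adjusted p between 0.332 and 0.641). The log2 level of EXOSC4 was 6.97 in EGOT gapmer replicate 1 and 6.65 to 6.67 in the other 2, against 6.45 to 6.76 with the control gapmer.

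**Figure D2:**
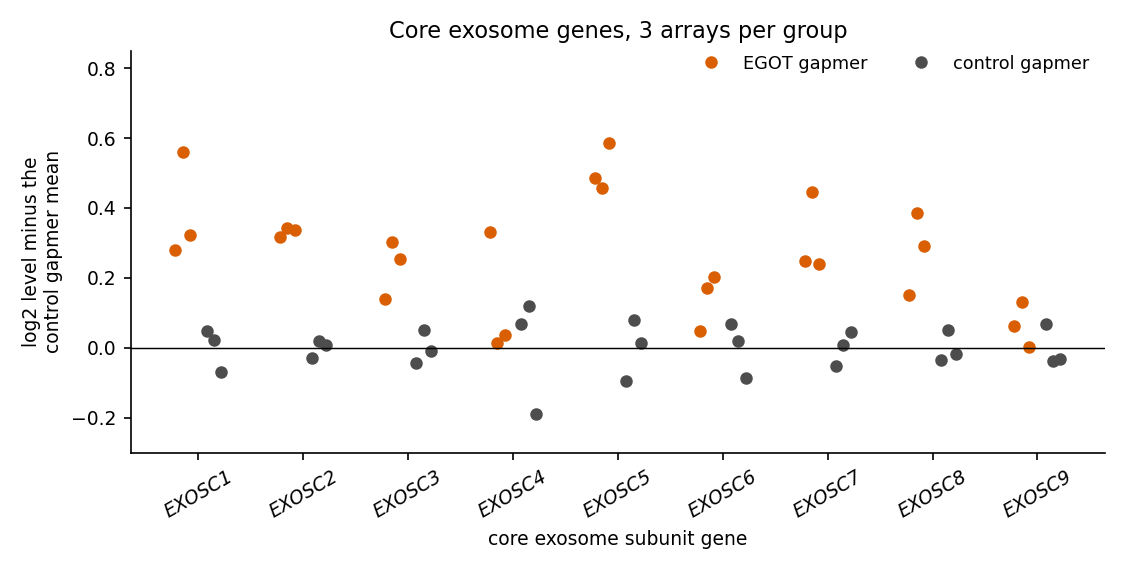
Log2 level of each core exosome gene in each array minus the gene's control gapmer mean (y axis), for the 9 genes (x axis), with the 3 EGOT gapmer arrays in orange and the 3 control gapmer arrays in grey. The orange points lie wholly above the grey ones in 6 genes and mix with them in EXOSC4, EXOSC6 and EXOSC9.

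The nucleases and the helicase that work with the core did not pass in either direction. EXOSC10, the nuclear nuclease of the exosome, read 9.72, 9.80 and 9.72 with the EGOT gapmer, against 9.64, 9.63 and 9.64 with the control gapmer. That is a log2 difference of 0.11 (95% interval -0.04 to 0.27, limma adjusted p = 0.351), with groups that did not overlap. EXOSC10 was the 1 gene of the set with 2 probe sets, and its dimmer probe set read 5.51, 5.79 and 5.51 in EGOT gapmer arrays, against 5.18, 5.34 and 5.16 in control gapmer arrays, a log2 difference of 0.38. The mean of both probe sets had a difference of 0.24 (limma adjusted p = 0.112).

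DIS3, the main catalytic subunit, had a log2 difference of -0.09 (95% interval -0.30 to 0.12), and its cytoplasmic relative DIS3L of 0.01 (95% interval -0.21 to 0.23). MTREX, the RNA helicase that feeds the nuclear exosome, had one of 0.03 (95% interval -0.17 to 0.22). DIS3L and MTREX changed sign in other scalings of the arrays, at -0.04 and -0.01 after another quantile normalization. DIS3L2, which degrades uridylated RNA without the exosome, read 7.08, 7.19 and 7.17 with the EGOT gapmer, against 7.42, 7.41 and 7.36 with the control gapmer. All EGOT gapmer arrays were below all control gapmer arrays, and the difference, -0.25 on the log2 scale, missed the threshold (SE 0.069, limma adjusted p = 0.0681).

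The deadenylase genes had log2 differences below 0 in all 3 members outside CCR4-NOT, and 1 fell. PAN3, which recruits the PAN2 nuclease to poly(A), read 7.98, 8.03 and 7.98 in EGOT gapmer arrays, against 8.31, 8.51 and 8.37 in control gapmer arrays. Its level with the EGOT gapmer was 0.756 of that with the control gapmer (log2 difference -0.40, SE 0.0772, limma adjusted p = 0.0284). PAN2, the catalytic subunit, read 7.98, 8.11 and 8.24 with the EGOT gapmer, against 8.23, 8.23 and 8.26 with the control gapmer, so that the groups overlapped (log2 difference -0.13, limma adjusted p = 0.403). PARN, a deadenylase that also trims noncoding RNAs, had a difference of -0.21 (limma adjusted p = 0.21) with groups that did not overlap.

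Of 11 CCR4-NOT genes 2 were measured, and neither passed. CNOT9, a scaffold subunit that binds silencing factors, read 8.36, 8.64 and 8.45 with the EGOT gapmer, against 8.25, 8.21 and 8.27 with the control gapmer (log2 difference 0.24, limma adjusted p = 0.15). EGOT gapmer replicate 2 was again the highest, and without it the difference was 0.16 (limma adjusted p = 0.246). CNOT11 had a difference of -0.05 (95% interval -0.21 to 0.11). The catalytic CNOT genes were not analysed here.

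Decapping and 5′ to 3′ decay genes did not pass, and 5 of the 7 were below 0. DCP1A, a cofactor of the decapping enzyme, read 8.02, 8.14 and 8.21 in EGOT gapmer arrays, against 8.39, 8.42 and 8.30 in control gapmer arrays, with a log2 difference of -0.25 (SE 0.0797, limma adjusted p = 0.109). Its relative DCP1B had a difference of 0.10 (95% interval -0.09 to 0.29). DCP2, the decapping enzyme itself, had one of -0.19 (95% interval -0.44 to 0.06), with 7.67, 7.94 and 7.78 in EGOT gapmer arrays, against 7.83, 8.11 and 8.02 in control gapmer arrays. The groups overlapped there, as they did for the enhancers of decapping EDC3, at -0.02, and EDC4, at -0.07.

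XRN1, the cytoplasmic exonuclease that follows decapping, read 8.17, 8.37 and 8.23 with the EGOT gapmer, against 8.46, 8.55 and 8.47 with the control gapmer. The groups did not overlap, and the difference of -0.23 on the log2 scale missed the threshold (SE 0.0789, limma adjusted p = 0.117). XRN2, the nuclear exonuclease, had a difference of 0.01 (95% interval -0.17 to 0.19), which was -0.01 after another quantile normalization. The difference between XRN1 and XRN2 was not tested.

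Nonsense-mediated decay gave the largest difference among the 33 genes. UPF2, which links UPF1 to the exon junction complex, read 7.51, 7.62 and 7.54 in EGOT gapmer arrays, against 8.20, 8.27 and 8.12 in control gapmer arrays. It fell to 0.641 of the control gapmer level (log2 difference -0.64, 95% interval -0.82 to -0.47, SE 0.0746, limma adjusted p = 0.0108). UPF1, the helicase at the centre of the pathway, read 9.56, 9.43 and 9.55 with the EGOT gapmer, against 9.38, 9.45 and 9.37 with the control gapmer. Its groups overlapped through EGOT gapmer replicate 2, and the difference of 0.11 on the log2 scale missed the threshold (95% interval -0.06 to 0.28, limma adjusted p = 0.402). The other 8 UPF and SMG genes of this role were not analysed here.

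RNASEH1 did not differ detectably between cells with either gapmer. It read 6.91, 6.96 and 6.92 with the EGOT gapmer, against 6.92, 6.97 and 6.86 with the control gapmer, a log2 difference of 0.01 (95% interval -0.15 to 0.17, limma adjusted p = 0.934). In the other scalings of the arrays it was -0.03. RNASEH1-DT, a noncoding transcript that starts 52 bases from RNASEH1 and runs the other way, read 6.60, 6.57 and 6.50 in EGOT gapmer arrays, against 6.21, 6.28 and 6.19 in control gapmer arrays. It rose 1.26-fold (log2 difference 0.33, SE 0.0693, limma adjusted p = 0.0349). The difference between the pair was not tested.

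ZC3H12A, which encodes the RNase Regnase-1, read 7.57, 7.69 and 7.77 with the EGOT gapmer, against 7.21, 7.32 and 7.26 with the control gapmer. Every EGOT gapmer array was above every control gapmer array, and the gene rose 1.33-fold (SE 0.0796 on the log2 scale, limma adjusted p = 0.0289). It was the 1 measured gene of the inducible decay factors, since the ZFP36 genes were not analysed here.

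The other noncoding transcripts did not pass. PAN3-AS1, an antisense transcript that overlaps PAN3 by 982 bases, read 5.69, 5.49 and 5.61 with the EGOT gapmer, against 5.18, 5.27 and 5.53 with the control gapmer (log2 difference 0.27, limma adjusted p = 0.183). Its sign was thus opposite to that of PAN3. Whether the probe sets of this pair lie in the shared stretch is not given in the sources used here. RNASEH2B-AS1 was dim, at 4.12 to 5.00, and had a difference of 0.28 with a wide 95% interval of -0.17 to 0.72.

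**Figure D3:**
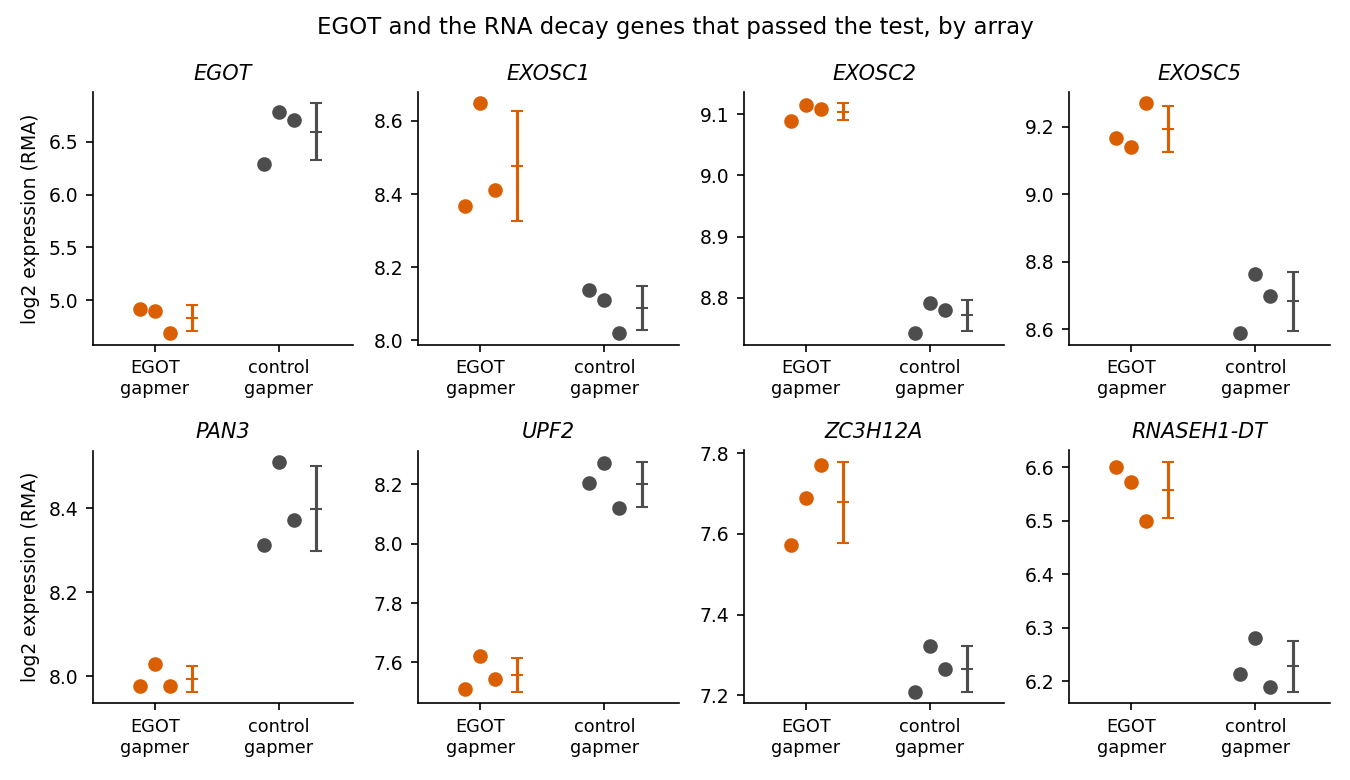
Log2 expression (y axis, a separate scale in each panel) of EGOT and of the 7 RNA decay genes that passed the test, by array (points), with the mean and SD of each group (bars, n = 3) to the right of its points. In every panel the EGOT gapmer arrays and the control gapmer arrays do not overlap.

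Gene span moved with the direction of change. The span is the genomic length of a gene in RefSeq, introns included. Across the 33 genes the log2 difference had a Pearson correlation of -0.704 with log10 span (Spearman -0.739), and of -0.172 (Spearman -0.212) across 14811 genes with a span. These are correlations across genes that share the same 6 arrays, so they are given as descriptions. The protein-coding genes that rose spanned 9.80 to 11.1 kb, and the 2 that fell spanned 123 kb (UPF2) and 157 kb (PAN3). Of the 6 members over 100 kb, 5 had groups that did not overlap, all lower, and MTREX was the exception. Over all 2113 protein-coding genes spanning more than 100 kb, 34.6% had groups that did not overlap and were lower, and 13.2% were called lower.

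The core exosome genes span 5.16 to 36.4 kb, and within the 9 the difference had a correlation of 0.0497 with log10 span. The median difference of protein-coding genes in that range of spans was 0.08. The median of the 9 core genes was 0.28. After a trend on gene span was removed from every array, 2.46% of all genes were called higher and 2.2% lower, and 8 of the 9 core genes were above 0, with a median of 0.18, and EXOSC9 was at -0.02. EXOSC5 still rose then (log2 difference 0.42, limma adjusted p = 0.0438) and UPF2 still fell (-0.58, limma adjusted p = 0.018). The other 5 no longer passed: EXOSC1 at 0.29, EXOSC2 at 0.24, ZC3H12A at 0.32, RNASEH1-DT at 0.25 and PAN3 at -0.32, with limma adjusted p from 0.0527 for PAN3 to 0.0857 for RNASEH1-DT. The part of gene span in these differences beyond this removal was not tested.

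**Figure D4:**
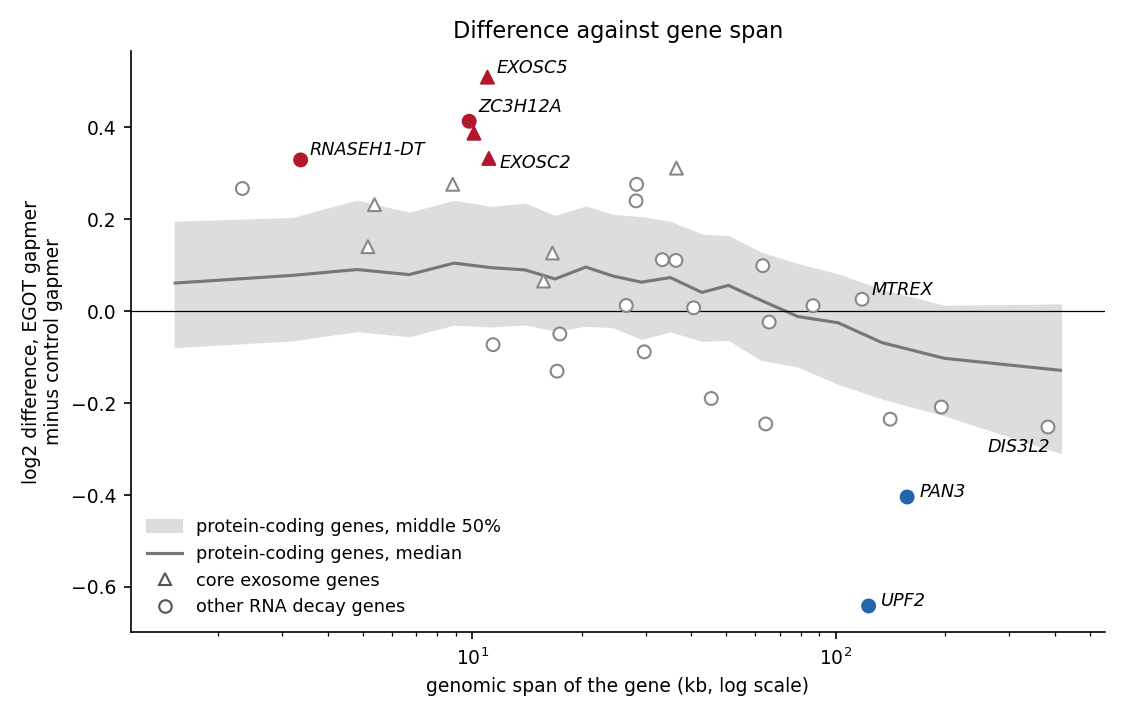
Log2 difference (EGOT gapmer minus control gapmer, y axis) against genomic span in kb (log x axis) for the 33 RNA decay genes, with triangles for the core exosome; red points rose, blue points fell and open points did not pass. The grey line and band are the median and middle 50% of protein-coding genes in 20 bins of span, and all 7 genes that passed lie outside the band, as do others that did not pass, such as EXOSC7 and CNOT9.

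Fewer genes passed when 1 array was left out, a fit that also has fewer arrays to estimate the variance from. Whether the loss came from the array left out or from the smaller number of arrays was not tested. With control gapmer replicate 1, 2 or 3 left out, 0 of the 33 genes passed limma's adjusted threshold. Over all genes 58, 9 and 34 passed it. An unadjusted limma p below 0.05 was reached by 12, 11 and 15 of the 33, and by 20.7%, 20% and 20% of all genes. Of all genes, 0.108% were then called higher and 0.284% lower without replicate 1, 0.0135% and 0.0473% without replicate 2, and 0.0878% and 0.142% without replicate 3. Without EGOT gapmer replicate 1, EXOSC5, ZC3H12A and UPF2 passed, without replicate 2 EXOSC5 and UPF2, and without replicate 3 only UPF2. The shares of all genes called there were 2.63% higher and 1.28% lower without replicate 1, 1.67% and 1.74% without replicate 2, and 0.466% and 0.587% without replicate 3. The log2 difference of UPF2 stayed between -0.68 and -0.60 in these 6 fits and that of EXOSC5 between 0.46 and 0.55. All 9 core exosome genes stayed above 0 in each of these fits. For the 6 core genes whose groups did not overlap, leaving out 1 array could not have changed that.

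Other ways of fitting moved the calls of all genes as well. A filter on low values, which 31 of the 33 genes passed, gave 9 higher and 5 lower, with 22.8% of the genes tested called higher and 11.6% lower. A robust variance trend gave the same counts of members, with 11.2% and 5.68% of all genes. Another quantile normalization gave 5 members higher and 4 lower, with 4.58% and 4.55% of all genes, and cyclic loess 4 and 5, with 4.35% and 4.57%. With the mean of probe sets 4 members were higher and 2 lower, where 5.03% and 3.04% of all genes were called. With every probe set tested 0 members passed, and 0.169% of the named genes were called higher and 0.284% lower. An unadjusted limma p below 0.05 was found there for 14 members and 21.1% of the named genes. In these fits XRN1 and DIS3L2 were the members that most often joined those called lower.

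**Figure D5:**
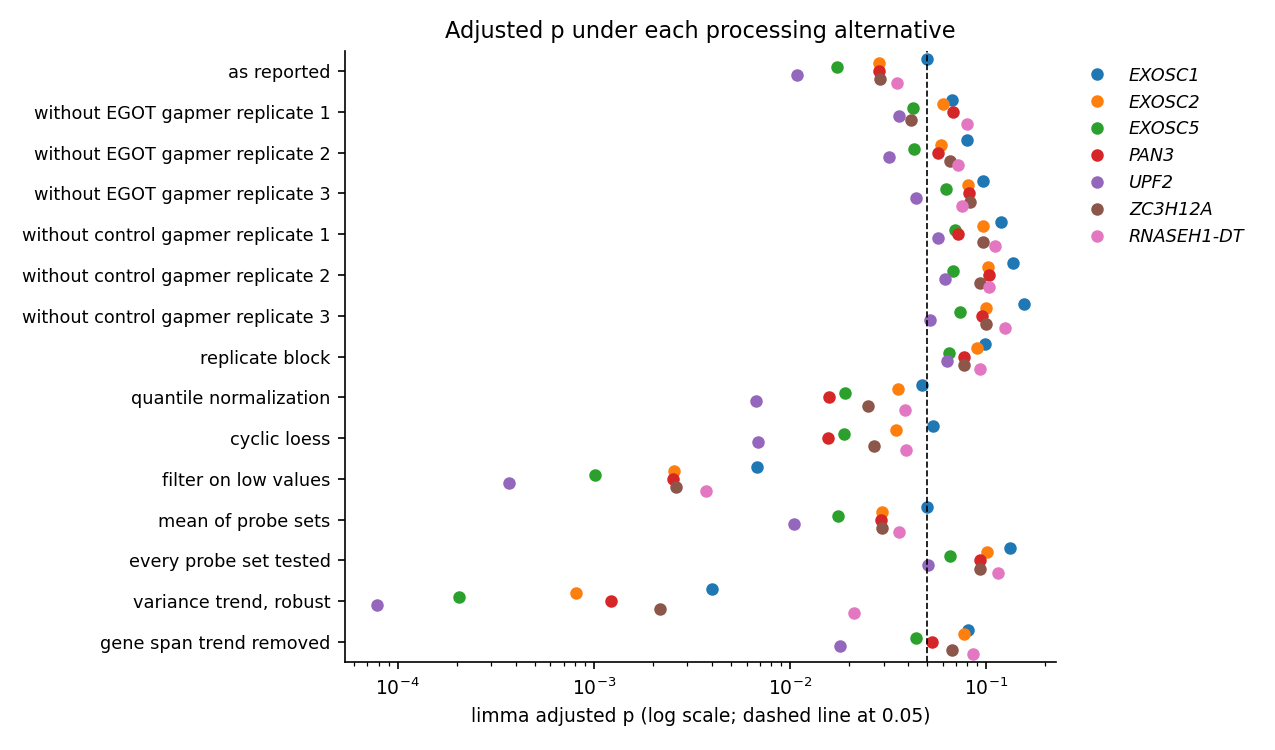
Limma adjusted p (log x axis, dashed line at 0.05) of the 7 genes that passed, for the reported fit and under each of the 14 processing alternatives (y axis). UPF2 passed in 9 alternatives and EXOSC5 in 8, while EXOSC1 passed in 3.

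Other genes of the pathway were taken from 74 symbols listed as partners of the members, where HRSP12 and RIDA name the same gene. The role of each listed gene in RNA decay, such as that of MPHOSPH10, was not checked. Of the 74 symbols 44 were measured, 8 rose (18.2%) and 1 fell (2.27%), and the median log2 difference was 0.09. Of all genes 5.2% were called higher and 3.21% lower, with a median of 0.04. In the fit of the 7406 genes above the median of gene means, 9 of these pathway genes were called higher and 2 lower. The shares of all genes in that fit were 22.8% and 11.6%. How many of the 44 entered it was not counted. The gene that rose most was RIDA, whose product helps an endonuclease cut methylated mRNA, at 7.49, 7.70 and 7.59 in EGOT gapmer arrays, against 6.94, 7.02 and 6.91 in control gapmer arrays (log2 difference 0.64, limma adjusted p = 0.012). SKIC8, a subunit of the SKI complex that threads RNA into the cytoplasmic exosome, rose by 0.59 on the log2 scale (SE 0.129, limma adjusted p = 0.0387). C1D, a cofactor of EXOSC10, rose by 0.49 (SE 0.0992, limma adjusted p = 0.0322).

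EIF4A3, a core protein of the exon junction complex that UPF2 contacts, rose by 0.45, and TNRC6A, a silencing protein that binds Argonautes, by 0.36. The remaining 3 were MPHOSPH10 (0.33), PNRC1 (0.38), a decapping cofactor, and DDX6 (0.27), a helicase of decapping, with limma adjusted p from 0.0306 to 0.0495. SAMD4A, an RNA-binding repressor, fell, with 6.22, 6.25 and 6.11 in EGOT gapmer arrays, against 6.69, 6.91 and 6.89 in control gapmer arrays (log2 difference -0.64, limma adjusted p = 0.0142). SAMD4A spans 228 kb. TNRC6A rose although it spans 216 kb. The other 2 SKI complex genes, SKIC2 and SKIC3, had differences of 0.10 and -0.03 and did not pass.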

How the data were processed

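Gene expression was measured in 6 samples on an Affymetrix whole-transcript array. The authors deposited log2 values from RMA, a step named in the submitters' processing notes that corrects background, normalizes quantiles and summarises probes. Its version, the genome build and any filters are not stated by those sources, and no detection calls were used, so dim genes carry mostly background. Array medians ranged from 5.08 to 5.23. Because RMA brings probe values to a shared distribution before it summarises them, a change in total RNA would not be seen. The summarised values still differed somewhat between arrays, as these medians show.

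Of 44629 probe sets 15835 had 1 symbol in GEO's platform annotation and 28794 were not named. All 14812 symbols matched the RefSeq gene table of GRCh38.p14, used for names, spans and neighbours. A gene was read by its probe set with the highest mean over the 6 arrays. Groups were compared with limma 3.58.1 in R 4.3.3 (lmFit, eBayes, two-sided, 7.19 degrees of freedom), adjusted by Benjamini-Hochberg over 14812 genes. Values after SE are limma's standard errors, from 3 arrays per group and the variance that limma shares across genes. The number of arrays limits their precision. Promoter motifs were chosen after the data were seen. Named members are those past the threshold and the 2 with the smallest p in each role, and all others are given by values or counts. For other pathway genes they are the 3 largest rises and falls past the threshold, and further genes such as DDX6 were named after their values were seen. The members, lists and alternatives were chosen with earlier results of these data known. The background shares by gene span were added after the data were seen.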

Additional observations from a re-analysis of the deposited data

How the results depend on the processing

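The 14 alternatives kept the sign of all 7 genes that passed. That sign could turn only with quantile normalization, cyclic loess or the span trend removed. The other alternatives leave the difference of these 7 genes unchanged or take 1 array from groups that do not overlap. The median log2 difference over the 33 members stayed above 0, from 0.011 to 0.092. That over all genes ran from -0.0015 with the span trend removed to 0.056 with the filter on low values. Genes called fell to 9 to 579 with 1 array left out and to 690 with the trend on gene span removed, 67 with every probe set tested and 0 with the replicate block, and rose to 2547 with a filter on low values and 2502 with a variance trend. RNA decay genes called higher numbered 0 to 2 with 1 array left out, 0 with the replicate block or every probe set tested, 1 with the span trend removed and 9 with the filter or the variance trend. Those called lower numbered 0 to 1 with 1 array left out, 0 with the replicate block or every probe set tested and 1 with the span trend removed. They numbered 4 after another quantile normalization, where DIS3L2 and XRN1 joined. With cyclic loess, the filter or the variance trend they numbered 5, as DCP1A joined too. Other pathway genes had alternatives chosen after seeing the data. They had 0 to 3 called higher with 1 array left out and 0 with the replicate block or every probe set tested. They had 4 called higher with the span trend removed, 9 with the filter and 11 with the variance trend. They had 0 to 1 called lower with 1 array left out, 0 with the replicate block or every probe set tested and 2 with the filter. With the replicate block 13 members and 3438 of all genes (23.2%) had an unadjusted limma p below 0.05. EGOT, at -1.76, no longer passed with the replicate block (limma adjusted p = 0.0543). Same-numbered arrays did not deviate together, with correlations of -0.0307, -0.054 and 0.0394 for replicates 1, 2 and 3. These values cannot show whether the arrays were prepared in pairs, and the labels do not say so. Signs turned in genes near 0. After quantile normalization DIS3L was -0.041, MTREX -0.0094, XRN2 -0.0079 and RNASEH1 -0.029. With cyclic loess DIS3L was -0.048, MTREX -0.026, XRN2 -0.033 and RNASEH1 -0.029. With the span trend removed DIS3L was -0.043, RNASEH1 -0.062 and EXOSC9 -0.024. With 1 array left out DIS3L was -0.069 to 0.061, MTREX -0.044 to 0.063, EDC3 -0.093 to 0.014, XRN2 -0.042 to 0.058 and RNASEH1 -0.014 to 0.038. The causes were not tested.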
